A study of Mus musculus with 19 samples.

Results

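The 38 genes described here encode enzymes and membrane proteins of the lysosome, namely cathepsins and other proteases, glycosidases, enzymes, activators and transporters of lipids, proton pump subunits and membrane glycoproteins or channels. They were taken by name from a list of symbols, by a rule that uses no measured value although the list was drawn up with earlier results of these data known, and all 38 were found among the 31053 genes of the count table. Bulk liver RNA of male C57BL/6 mice was measured by 3′-end RNA sequencing in 3 groups. Control mice received the vehicle PBS (n = 5), AAV-GFP mice received thioacetamide (TAA), a hepatotoxin that causes fibrosis, and an AAV8 vector for green fluorescent protein, eGFP (n = 7), and the mice of the third group (AAV-miR-34b/c, n = 7) received TAA and 2 AAV8 vectors, 1 for miR-34b and 1 for miR-34c. The TAA groups are called GFP and miR-34b/c below. The mice were 6 to 8 weeks old at the start, TAA was given for 12 weeks at increasing doses, the vectors were injected after 10 weeks and the livers were taken 4 weeks later. The vectors used the TBG promoter, which is active in hepatocytes, whereas the RNA came from all cells of the liver. GFP and miR-34b/c mice therefore differed from vehicle mice by TAA and by a vector together, and these cannot be told apart.

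Lysosomes are acidic organelles in which proteins, glycans and lipids delivered by endocytosis, phagocytosis and autophagy are broken down. A proton pump, the V-ATPase, acidifies the lumen, soluble hydrolases arrive from the Golgi, mostly through mannose 6-phosphate receptors, and heavily glycosylated membrane proteins such as LAMP1 and LAMP2 line the limiting membrane. In the liver, hepatocytes and phagocytic Kupffer cells are rich in lysosomes, and many genes of the organelle are controlled together by TFEB and its relatives through an E-box element in their promoters. Since the RNA was from whole liver, fewer cells of a type and less RNA per cell cannot be told apart for any gene below.

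The libraries held 2214070 to 5208400 counts each. Hepatocyte transcripts were abundant in every library, with 10 hepatocyte markers summing to 74970 to 115993 CPM, the counts relative to the total of the library. Counts of single lysosomal genes ranged from 1 in a library for Manba to 5673 for Grn, so Manba, with at most 16 counts in any library, was measured with the least precision. In 6 pairs, each of 2 libraries of the same group (vehicle 1 with 4 and 3 with 5, GFP 1 with 2, and miR-34b/c 1 with 2, 3 with 4 and 5 with 7), the biological coefficient of variation estimated by edgeR lay between 0.0813 and 0.170, while the other 46 pairs within a group had 0.214 to 0.473. Close pairs still differed by more than sampling of reads gives and were kept as separate samples, as the labels call each library a biological replicate. Whether the libraries of a pair come from separate mice was not tested, and n, the p-values of the fits and the exact permutation p below take each library as a separate sample. The counts of called members are also given with the close pairs summed, those of marker lists on all libraries alone. Summing left 3 vehicle, 6 GFP and 4 miR-34b/c samples. Libraries 1 and 2 of miR-34b/c also stood apart in neutrophil markers, as given with Ctsc. Collagen transcripts also differed between the groups. Of the stellate cell and fibroblast markers, 4 of 11 tested were higher and 1 was lower in GFP against vehicle (Col1a1 by 2.42). Over all genes tested, 7.54% were called higher and 5.19% lower. In miR-34b/c against GFP, 0 of 9 were higher and 2 lower (Col1a1 at -1.92 and Col3a1 at -1.46), beside 1.95% and 1.42% of all genes. At an unadjusted p under 0.05 in edgeR, 5 were lower, beside 7.77% of all genes. Against vehicle, 0 of 9 were called in miR-34b/c, with 1 lower at an unadjusted p under 0.05 in edgeR, beside 17.5% of all genes. The summed level of the 12 markers was 419 to 663 CPM in vehicle, 451 to 582 CPM in GFP and 293 to 609.8 CPM in miR-34b/c. In miR-34b/c libraries 1 and 2 the sum was 609.8 and 598 CPM, and in libraries 3 to 7 it was 293 to 398 CPM, below every GFP library. The part of stellate cell and fibroblast RNA in the results below was not tested. The summed level of 6 cholangiocyte markers was 18.6 to 40.9 CPM in vehicle, 53.6 to 94.9 CPM in GFP and 49.9 to 118 CPM in miR-34b/c, so that both TAA groups lay above every vehicle library. Only Sox9 and Spp1 of this list had enough counts for the test, with medians of 42.9 and 17.5 CPM in miR-34b/c. Spp1 is also on the list of scar-associated macrophage markers below. Spp1 was higher in GFP against vehicle and Sox9 in miR-34b/c against vehicle (1.40, adjusted p = 0.00223, edgeR), and 0 of the 2 were called between miR-34b/c and GFP, with 1 lower at an unadjusted p under 0.05, beside 7.77% of all genes. Krt7, Krt19, Epcam and Cldn4 had at most 26 counts in any library. Their medians were 0 to 0.69 CPM in vehicle, 0.78 to 3.17 CPM in GFP and 0 to 1.13 CPM in miR-34b/c. The part of cholangiocyte RNA in the differences from vehicle was not tested.

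A few named lysosomal genes moved, while most of the 38 did not pass the test. In fibrotic GFP livers, Man2b1, Psap and Lipa rose and Ctsh fell relative to vehicle livers, by 1.59-fold to 1.96-fold. In miR-34b/c livers, Grn, Ctsz and Ctsc were higher than in GFP livers, by 2.10-fold, 1.39-fold and 2.31-fold. Relative to vehicle, miR-34b/c livers had higher Psap, Grn, Laptm5, Fuca1, Ctsz and Man2b1 and lower Ctsh and Npc1.

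Differential expression was tested with the quasi-likelihood test of edgeR over all genes that passed a filter on low counts, with Benjamini-Hochberg adjustment over all of them and a threshold of 0.05. Between GFP and vehicle, 3 of 38 members (7.89%) were higher, beside 7.54% of the 9522 genes tested, and 1 (2.63%) was lower, beside 5.19%, so the shares were near the background. Between miR-34b/c and GFP, 3 of the 37 members tested (8.11%) were higher, beside 1.95% of 9252 genes, and 0 were lower, beside 1.42%, with 7 members higher and 2 lower at an unadjusted p under 0.05, beside 7.51% and 7.77% of all genes at that p. Between miR-34b/c and vehicle, 6 of 37 members (16.2%) were higher, beside 12.2% of 9290 genes, and 2 (5.41%) were lower, beside 9.75%. Manba was removed by the filter in the last pair of comparisons. The median log2 fold change of the members tested was -0.01, 0.19 and 0.21 in the 3 comparisons, beside -0.01, -0.01 and 0.02 over all genes tested.

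With the close pairs of libraries summed, edgeR called 0 members between GFP and vehicle and 0 between miR-34b/c and GFP, with 7 members in each at an unadjusted p under 0.05 (beside 19.4% and 11% of all genes at that p), and 4 between miR-34b/c and vehicle (Psap, Ctsh, Npc1 and Laptm5). These fits called 2.26%, 0.832% and 3.12% of all genes tested. On all libraries, DESeq2 called 4, 5 and 10 members (10.5%, 13.5% and 27.0%), beside 16.4%, 5.78% and 26.2% of all genes. With limma-voom it was 9, 7 and 19 members (23.7%, 18.9% and 51.4%), beside 28.2%, 8.79% and 41.3% of all genes. Scaling by library size alone moved the median log2 fold change of all genes to -0.20 between miR-34b/c and GFP and to -0.13 between miR-34b/c and vehicle, and the split of calls became 1 higher (Grn) to 3 lower (Ctsh, Npc1 and Hexa) and 4 higher (Psap, Grn, Laptm5 and Fuca1) to 5 lower (Ctsh, Npc1, Lamp2, Asah1 and Atp6v1a), so that directions of small differences are relative to the TMM scale used here. The direction of every called member was the same under each scaling, filter, tool and left-out library that was run.

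**Figure D1:**
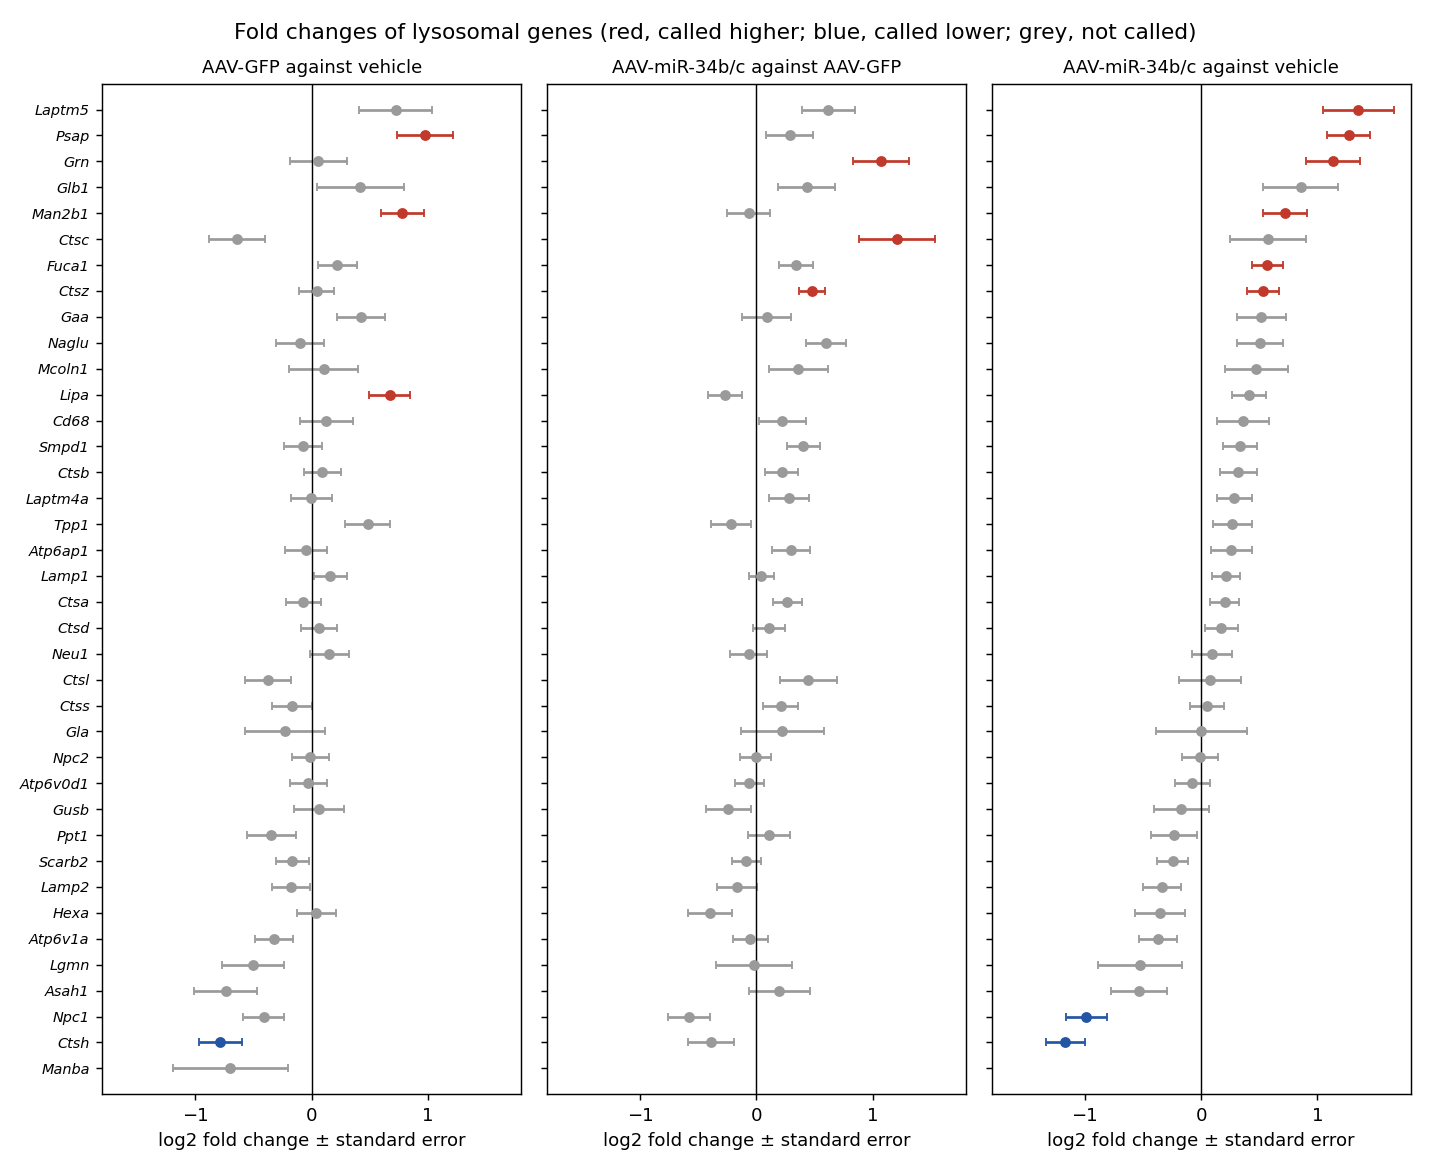
Log2 fold change (x axis) with its standard error for each lysosomal gene (y axis, ordered by the comparison of miR-34b/c with vehicle) in the 3 comparisons, from edgeR. Red and blue points passed the adjusted threshold of 0.05. Psap, at 0.97 and 1.27, lies far to the right against vehicle in both TAA groups, Grn at 1.07 and Ctsc at 1.21 lead the comparison of miR-34b/c with GFP, and most genes are grey and close to 0.

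In the sentences below, normalized expression is in CPM on a single TMM scale over the 19 libraries, with the vehicle libraries given in order of replicate number and the groups of 7 by their lowest, median and highest value. Fold changes are log2 values ± standard error, with the adjusted p of edgeR. Each member and comparison was also given an exact permutation test, two-sided, on log2 CPM (114 tests, p not adjusted). The smallest p it can give is 0.00126 for 7 against 5 libraries and 0.000583 for 7 against 7.

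Of the 7 cysteine proteases, which cut proteins in the acidic lumen, Ctsh fell, Ctsz and Ctsc rose, and Ctsb, Ctsl, Ctss and Lgmn did not pass the test in any comparison. Ctsh (ENSMUSG00000032359, mm10 chr9:90054152-90076089) encodes cathepsin H, an aminopeptidase. Its normalized expression was 746, 834, 790.5, 820.0 and 697 CPM in the vehicle libraries, 338, 399.7 and 703 CPM in GFP and 217, 322 and 466 CPM in miR-34b/c. A single GFP library reached into the vehicle range, and all miR-34b/c libraries were below every vehicle library. The difference from vehicle was -0.79 ± 0.18 in GFP (adjusted p = 0.00977, exact permutation p = 0.00379) and -1.17 ± 0.17 in miR-34b/c (adjusted p = 0.000343, exact permutation p = 0.00126, the smallest possible). Between the TAA groups the groups overlapped, and the difference of -0.39 ± 0.19 did not pass (adjusted p = 0.351).

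Ctsz (ENSMUSG00000016256, chr2:174427493-174439039) encodes cathepsin Z, a carboxypeptidase. It was at 105, 159, 139.6, 109 and 141 CPM in vehicle, at 121, 136 and 143 CPM in GFP and at 172, 189 and 207 CPM in miR-34b/c. All miR-34b/c libraries were above all libraries of both other groups, which overlapped each other. The difference of miR-34b/c was 0.48 ± 0.11 from GFP (adjusted p = 0.0184, exact permutation p = 0.000583, the smallest possible) and 0.53 ± 0.14 from vehicle (adjusted p = 0.0128), while GFP differed from vehicle by 0.04 ± 0.15 (adjusted p = 0.878). The call against GFP was lost without GFP library 1 (adjusted p = 0.0504), without miR-34b/c library 3 (adjusted p = 0.0525), without the filter on low counts (0.0603) and with scaling by library size alone (log2 fold change 0.29, adjusted p = 0.169). It was also lost with the replicate block and with close pairs summed (adjusted p up to 0.198), each of which called 0 members between miR-34b/c and GFP. The call against vehicle was lost with scaling by library size alone (0.39, adjusted p = 0.0653), with the replicate block (0.0561) and with close pairs summed (0.186). Ctsz overlaps Nelfcd, which lies on the opposite strand, and whether the counting used strand is not given in the sources used here.

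Ctsc (ENSMUSG00000030560, chr7:88278085-88310888) encodes cathepsin C, the dipeptidyl peptidase that activates the serine proteases of neutrophil granules. It was at 115, 83.4, 67.8, 123 and 78.8 CPM in vehicle, at 27.9, 57.5 and 105 CPM in GFP and at 66.4, 121 and 285 CPM in miR-34b/c. The 2 highest values, 285 and 222 CPM, were those of miR-34b/c libraries 1 and 2, and the lowest values of that group lay within the GFP range. The difference between miR-34b/c and GFP was 1.21 ± 0.32 (adjusted p = 0.0461, exact permutation p = 0.00874). Against vehicle the differences were -0.64 ± 0.24 for GFP (adjusted p = 0.0805) and 0.57 ± 0.33 for miR-34b/c (adjusted p = 0.216), and neither passed. The noncoding gene Gm26522 overlaps Ctsc on the opposite strand.

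The call for Ctsc was lost in most fits with 1 library fewer and held in 4 of 14. It was lost without any one of GFP libraries 1, 2, 3, 4, 6 or 7 (adjusted p = 0.0645 to 0.0885) and without any one of miR-34b/c libraries 1, 2, 3 or 4 (0.0704 to 0.0878). On all libraries, it was lost with scaling by library size alone (log2 fold change 0.96, adjusted p = 0.0572), in limma-voom (0.0661), with the replicate block (0.153) and with close pairs summed (0.203). The summed expression of 7 neutrophil markers moved with it, at 17.7 to 80.5 CPM in vehicle, 13.98 to 73.3 CPM in GFP and 62.8 to 1925 CPM in miR-34b/c. miR-34b/c libraries 1 and 2 had the highest sums, 1925 and 1912 CPM, followed by 423 and 396 CPM in libraries 4 and 3. In the vehicle group, libraries 1 and 4 had the highest sums, 80.5 and 78.2 CPM. S100a8, S100a9 and Retnlg, the 3 markers that could be tested, were all higher in miR-34b/c than in GFP, beside 1.95% of all genes. Ly6g, which defines mouse neutrophils, had 0 counts in every vehicle library, 0 to 3 in GFP and 1 to 14 in miR-34b/c. Without miR-34b/c libraries 1 and 2, an alternative chosen after these sums were seen, the difference of Ctsc was 0.62 and did not pass (adjusted p = 0.128). As these libraries held the 2 highest Ctsc values, leaving them out lowers the difference in any case. The part of neutrophil RNA in the result was not tested.

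**Figure D2:**
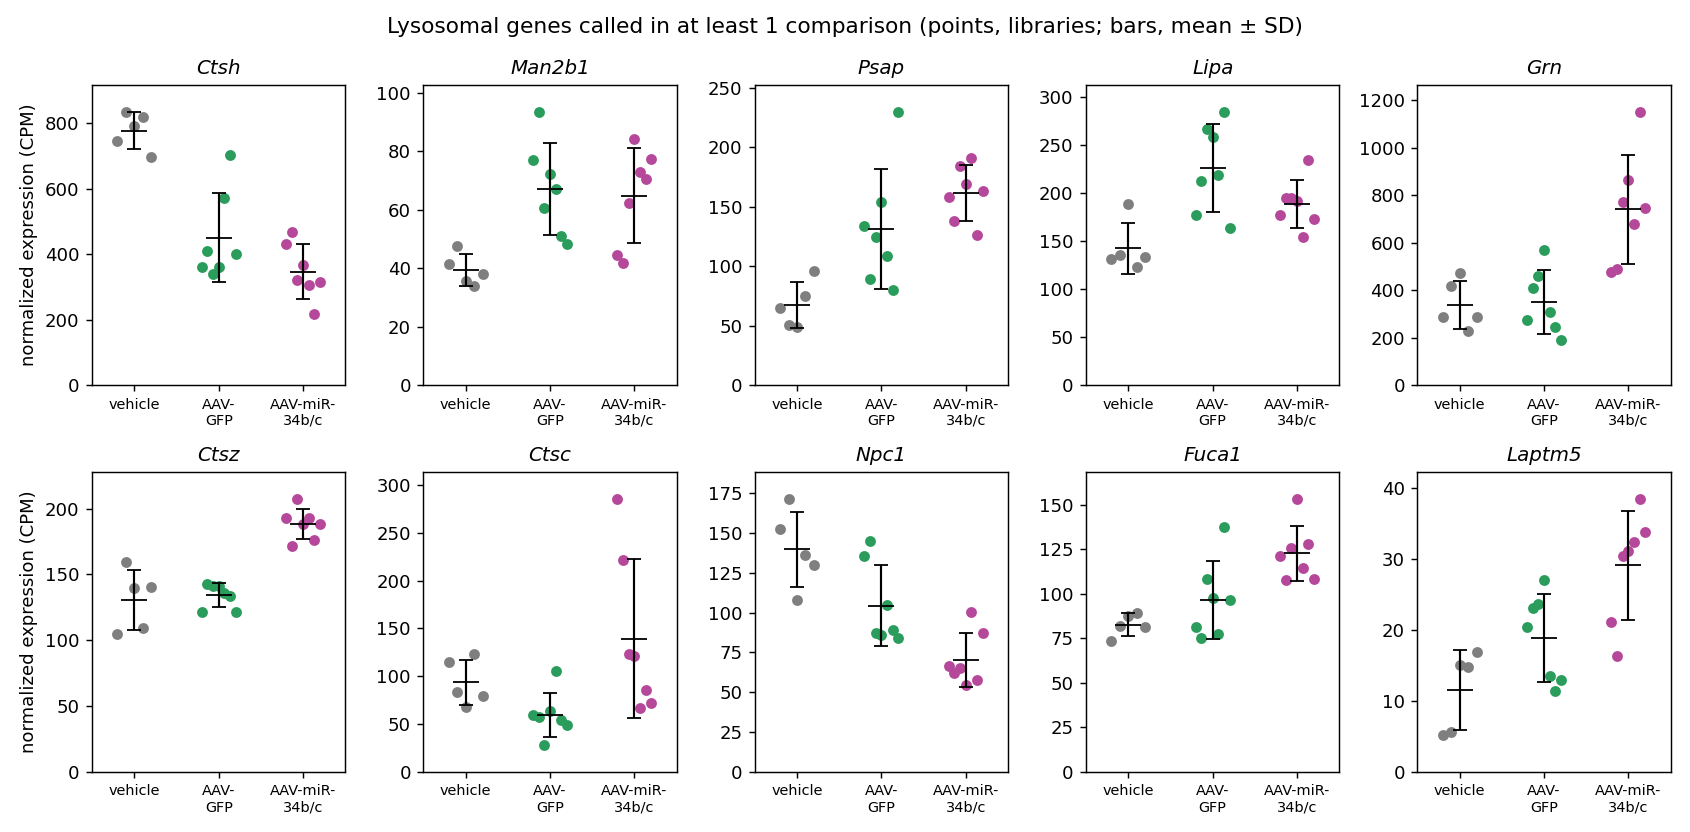
Normalized expression (y axis, CPM, from 0) of the 10 lysosomal genes called in at least 1 comparison, by group (x axis: vehicle, n = 5, GFP, n = 7, miR-34b/c, n = 7). Points are libraries and bars are mean ± SD. All miR-34b/c libraries lie above the others for Ctsz, from 172 to 207 CPM, whereas for Ctsc the group spreads from 66.4 to 285 CPM.

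Among the remaining cysteine proteases, Lgmn and Ctsl, chosen after their values were seen, varied widely within the miR-34b/c group and also within the vehicle group. Lgmn encodes legumain, the asparaginyl endopeptidase that processes other cathepsins. It was at 35.5 and 33.8 CPM in miR-34b/c libraries 1 and 2 and at 9.42 to 13.2 CPM in the other 5, beside 13.7 to 40.1 CPM in vehicle. Ctsl, for the endopeptidase cathepsin L, was at 808 and 755 CPM in the same 2 libraries and at 276 to 449 CPM in the others. In vehicle Ctsl was at 307 to 569 CPM. Vehicle libraries 1 and 4, also a close pair, had the highest values of their group, 40.1 and 32.2 CPM for Lgmn and 569 and 551 CPM for Ctsl. Group differences of Lgmn and Ctsl did not pass in any comparison (adjusted p = 0.202 to 0.986). Ctsb and Ctss, for the abundant cathepsin B and the cathepsin S of antigen-presenting cells, had log2 fold changes of -0.17 to 0.32 over the 3 comparisons, none of which passed.

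None of the 3 other proteases passed the test. Tpp1 encodes tripeptidyl peptidase 1, an aminopeptidase. It was at 71.8, 49.1, 47.9, 59.8 and 67.9 CPM in vehicle, at 47.8, 91.4 and 104 CPM in GFP and at 52.6, 73.6 and 87.1 CPM in miR-34b/c. In GFP, 5 of 7 libraries were above every vehicle library and 1 was below all of them, with a difference of 0.48 ± 0.19 (adjusted p = 0.102). Ctsd, for the main aspartic protease cathepsin D, had differences of 0.06, 0.10 and 0.17 in the 3 comparisons, and Ctsa, whose product protects beta-galactosidase and neuraminidase, had -0.07, 0.27 and 0.20.

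Among the 10 glycosidases, which strip sugars from glycoproteins and glycolipids, Man2b1 rose in both TAA groups and Fuca1 rose in miR-34b/c, each against vehicle. Man2b1 (ENSMUSG00000005142, chr8:85083270-85098282) encodes lysosomal alpha-mannosidase. It was at 41.4, 47.4, 35.5, 33.9 and 37.98 CPM in vehicle, at 48.3, 67.1 and 93.3 CPM in GFP and at 41.8, 70.3 and 84.1 CPM in miR-34b/c. No GFP library overlapped the vehicle range, while miR-34b/c libraries 1 and 2, at 44.4 and 41.8 CPM, lay within it. The difference from vehicle was 0.78 ± 0.19 in GFP (adjusted p = 0.0107, exact permutation p = 0.00253) and 0.72 ± 0.19 in miR-34b/c (adjusted p = 0.0137, exact permutation p = 0.00884). The call in miR-34b/c was lost with scaling by library size alone (0.60, adjusted p = 0.0538), with the replicate block (0.118) and with close pairs summed (0.118). Between the TAA groups it was -0.07 ± 0.19, which did not pass (adjusted p = 0.921).

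Fuca1 (ENSMUSG00000028673, chr4:135920735-135940311) encodes alpha-L-fucosidase. Its values were 73.2, 82.0, 87.8, 89.1 and 81.6 CPM in vehicle, 75.0, 96.7 and 137 CPM in GFP and 108, 121 and 153 CPM in miR-34b/c. The miR-34b/c libraries were all above the vehicle libraries, and GFP overlapped both groups. The difference from vehicle was 0.57 ± 0.13 in miR-34b/c (adjusted p = 0.00764, exact permutation p = 0.00126, the smallest possible) and 0.22 ± 0.17 in GFP (adjusted p = 0.396). Against GFP it was 0.34 ± 0.15 and did not pass (adjusted p = 0.269).

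Naglu encodes the N-acetylglucosaminidase that degrades heparan sulphate. It was at 20.0, 31.6, 20.4, 28.3 and 17.8 CPM in vehicle, at 13.3, 23.4 and 25.7 CPM in GFP and at 21.5, 35.2 and 40.9 CPM in miR-34b/c. In miR-34b/c, 6 of 7 libraries were above every GFP library, with a difference of 0.60 ± 0.17 that did not pass in edgeR (adjusted p = 0.0682) and passed in DESeq2 (0.0187). The other glycosidases, which are Glb1, Gla, Hexa, Gusb, Gaa, Neu1 and Manba, were not called in any comparison. Glb1 (beta-galactosidase), at 1.94 to 10.6 CPM over all libraries, differed from vehicle by 0.42 ± 0.37 in GFP and by 0.86 ± 0.32 in miR-34b/c (adjusted p = 0.472 and 0.0636). Gla (alpha-galactosidase A), Gusb (beta-glucuronidase), Gaa (acid alpha-glucosidase, which degrades glycogen) and Neu1 (neuraminidase) had log2 fold changes from -0.24 to 0.52 over the 3 comparisons, and Manba (beta-mannosidase) had -0.70 ± 0.50 in the single comparison that tested it. Hexa, for a beta-hexosaminidase subunit, was at 36.4, 48.1 and 55.4 CPM in GFP and at 21.3, 32.4 and 51.6 CPM in miR-34b/c, a difference of -0.40 ± 0.19 (adjusted p = 0.326). In miR-34b/c libraries 1 and 2 it was at 51.6 and 50.9 CPM, and 5 of 7 libraries of that group, at 21.3 to 34.4 CPM, were below every GFP library.

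Of the 8 genes for handling lipids, Psap and Lipa rose in GFP against vehicle, Grn rose in miR-34b/c against both other groups, and Npc1 fell in miR-34b/c against vehicle. Psap (ENSMUSG00000004207, chr10:60277627-60302597) encodes prosaposin, the precursor of the saposins that present sphingolipids to their hydrolases. Its normalized expression was 64.9, 50.7, 48.8, 74.9 and 96.2 CPM in vehicle, 79.6, 124 and 229.7 CPM in GFP and 126, 164 and 191 CPM in miR-34b/c. Vehicle and GFP overlapped through 2 GFP libraries, and vehicle and miR-34b/c did not overlap. The difference from vehicle was 0.97 ± 0.24 in GFP (adjusted p = 0.0139, exact permutation p = 0.00884) and 1.27 ± 0.18 in miR-34b/c (adjusted p = 0.000323, exact permutation p = 0.00126, the smallest possible). The difference of 0.28 ± 0.20 between the TAA groups did not pass (adjusted p = 0.557).

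Grn (ENSMUSG00000034708, chr11:102430315-102437048) encodes progranulin, which travels to the lysosome with prosaposin and is cut there into granulins. It was at 286, 415, 472, 227 and 287 CPM in vehicle, at 188, 307 and 569 CPM in GFP and at 478, 744 and 1149.5 CPM in miR-34b/c. Vehicle and GFP overlapped throughout, every miR-34b/c library was above every vehicle library, and 5 of 7 were above every GFP library. The difference of miR-34b/c was 1.07 ± 0.24 from GFP (adjusted p = 0.0159, exact permutation p = 0.00233) and 1.14 ± 0.23 from vehicle (adjusted p = 0.00376), while GFP differed from vehicle by 0.06 ± 0.25 (adjusted p = 0.904). The 2 miR-34b/c libraries with the highest neutrophil sums had the lowest Grn of their group, 478 and 487 CPM, and without them the difference from GFP was 1.25 (adjusted p = 0.00395). The call against GFP held when any single library was left out (adjusted p up to 0.0426). It was lost with close pairs summed (0.0999) and with the replicate block, which called 0 members between miR-34b/c and GFP. Fam171a2 overlaps Grn on the opposite strand.

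Some macrophage markers were called between these groups as well. Of the 14 macrophage and Kupffer cell markers, which sum to 594 to 1094 CPM in vehicle, 6 fell in GFP against vehicle (Adgre1, Clec4f, Timd4, Vsig4, Cd5l and Cd163) and 0 rose. Over all genes tested, 5.19% fell and 7.54% rose. Between miR-34b/c and GFP, 2 of 13 tested were higher (C1qb by 0.94 and Cd5l by 0.86) and 0 were lower, beside 1.95% and 1.42% of all genes. Of the 13, 10 had a log2 fold change above 0, while the medians of Lyz2, Adgre1 and Mrc1 were lower in miR-34b/c. The sums, 699 to 939 CPM against 477 to 758 CPM, overlapped. Against vehicle, 0 of 14 were higher and 2 were lower in miR-34b/c (1 higher and 4 lower at an unadjusted p under 0.05, beside 19.4% and 17.5% of all genes), with a median log2 fold change of -0.13. No marker of the list was without counts in a group. The 6 scar-associated macrophage markers, which mark macrophages of fibrotic tissue, moved differently. In GFP against vehicle 2 of 5 tested were higher (Gpnmb, from a median of 0 to 23.3 CPM, and Spp1, from 10.9 to 31.5 CPM), beside 7.54% of all genes. Fabp5 was lower, at -2.03, beside 5.19% of all genes. In miR-34b/c against GFP, Fabp5 was higher by 1.63 and Gpnmb was lower, at -1.37, of 5 tested, beside 1.95% and 1.42% of all genes. Between miR-34b/c and vehicle, Gpnmb alone of 5 was called, higher, beside 12.2% of all genes. The sums of this list were 64.9 to 219.9 CPM in vehicle, 83.0 to 128 CPM in GFP and 92.8 to 187 CPM in miR-34b/c. Progranulin, cathepsin Z and LAPTM5 are expressed by macrophages as well as by other cells, and the part of macrophage RNA in their differences was not tested. Of the endothelial cell markers, 1 of 7 tested was higher in miR-34b/c than in GFP (Lyve1, at 40.8 to 52.8 CPM against 15.3 to 28.8 CPM) and 0 were lower. Over all genes tested, 1.95% were called higher and 1.42% lower. Against vehicle, Lyve1 was higher and Cdh5 lower in miR-34b/c, of 7 tested, beside 12.2% and 9.75% of all genes. In GFP against vehicle 0 of 7 were called, with 1 lower at an unadjusted p under 0.05 in edgeR, beside 13.5% of all genes. The sums of the 8 markers were 208 to 268 CPM in vehicle, 182 to 252 CPM in GFP and 242 to 297 CPM in miR-34b/c, and their part was not tested either.

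Lipa (ENSMUSG00000024781, chr19:34492318-34527474) encodes lysosomal acid lipase, which frees cholesterol and fatty acids from lipoprotein lipids. It was at 131, 136, 188, 123 and 133 CPM in vehicle, at 163, 219 and 284 CPM in GFP and at 154, 191 and 234 CPM in miR-34b/c. The vehicle range overlapped both TAA groups only through vehicle library 3. GFP was higher than vehicle by 0.67 ± 0.18 (adjusted p = 0.0167, exact permutation p = 0.00631), a call that was lost without vehicle library 4 (0.0529). In miR-34b/c the difference from vehicle was 0.41 ± 0.15 (adjusted p = 0.0542), and between the TAA groups it was -0.27 ± 0.15 (adjusted p = 0.408).

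Npc1 (ENSMUSG00000024413) encodes the membrane protein that exports cholesterol from the lysosome. Its values were 152, 171, 108, 136 and 130.1 CPM in vehicle, 84.0, 88.7 and 145 CPM in GFP and 54.4, 64.9 and 100.3 CPM in miR-34b/c. The vehicle and miR-34b/c groups did not overlap, and the GFP group overlapped both. The fall in miR-34b/c against vehicle was -0.99 ± 0.17 (adjusted p = 0.00143, exact permutation p = 0.00253), whereas GFP differed from vehicle by -0.41 ± 0.18 (adjusted p = 0.124) and miR-34b/c from GFP by -0.58 ± 0.18 (adjusted p = 0.0846), the last of which passed in DESeq2 (0.0387). Npc2, for the soluble partner that hands cholesterol to NPC1, was at -0.01 in each comparison, with standard errors of 0.13 to 0.16. Rmc1 and the antisense gene Gm15956 overlap Npc1 on the opposite strand.

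Of the other lipid enzymes, Asah1 encodes acid ceramidase. It was at 16.9, 22.1, 23.5, 28.6 and 13.7 CPM in vehicle, at 5.28, 10.9 and 19.0 CPM in GFP and at 9.32, 12.9 and 21.5 CPM in miR-34b/c. Both TAA groups overlapped vehicle, and the differences from it of -0.74 ± 0.27 and -0.54 ± 0.24 did not pass (adjusted p = 0.0769 and 0.116). Smpd1, for acid sphingomyelinase, was at 50.4, 45.1, 48.3, 40.9 and 44.4 CPM in vehicle, at 31.99, 44.4 and 52.4 CPM in GFP and at 44.9, 56.4 and 68.5 CPM in miR-34b/c. All but 1 of the miR-34b/c libraries were above every GFP library, with a difference of 0.40 ± 0.14 that did not pass (adjusted p = 0.147). Ppt1, for palmitoyl-protein thioesterase 1, had -0.35, 0.11 and -0.23, none of which passed.

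Laptm5 was the only one of the 7 membrane proteins that was called, and none of the 3 proton pump members was. Laptm5 (ENSMUSG00000028581, chr4:130913125-130936141) encodes a lysosomal transmembrane protein known mainly from blood cells. It was at 5.18, 5.601, 15.1, 14.8 and 17.0 CPM in vehicle, at 11.4, 20.5 and 27.1 CPM in GFP and at 16.3, 31.2 and 38.5 CPM in miR-34b/c. The groups overlapped, but 6 of 7 miR-34b/c libraries were above every vehicle library. The difference from vehicle was 1.35 ± 0.30 in miR-34b/c (adjusted p = 0.00609, exact permutation p = 0.00253) and 0.72 ± 0.31 in GFP (adjusted p = 0.130), and between the TAA groups it was 0.62 ± 0.23 (adjusted p = 0.169).

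The other 6 membrane proteins were not called in any comparison, and the ranges of the groups overlapped. Lamp1 was at 661 to 819 CPM in vehicle, 741 to 880.2 CPM in GFP and 782 to 902 CPM in miR-34b/c, with differences of 0.16, 0.04 and 0.21 in the 3 comparisons. Lamp2 was at 606 to 699, 460.0 to 742 and 393 to 703 CPM, with -0.18, -0.17 and -0.34. Cd68, a macrophage glycoprotein of the LAMP family, was at 8.42 to 11.3, 7.65 to 14.7 and 8.54 to 15.9 CPM, with 0.12, 0.22 and 0.36. Scarb2 (the receptor that delivers glucocerebrosidase), Mcoln1 (the calcium channel TRPML1) and Laptm4a had log2 fold changes from -0.24 to 0.48. For the pump, Atp6v1a (the catalytic subunit) had -0.32, -0.05 and -0.37, Atp6v0d1 had -0.03, -0.06 and -0.08, and the accessory subunit Atp6ap1 had -0.05, 0.30 and 0.26. None of the 3 pump members passed the test.

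**Figure D3:**
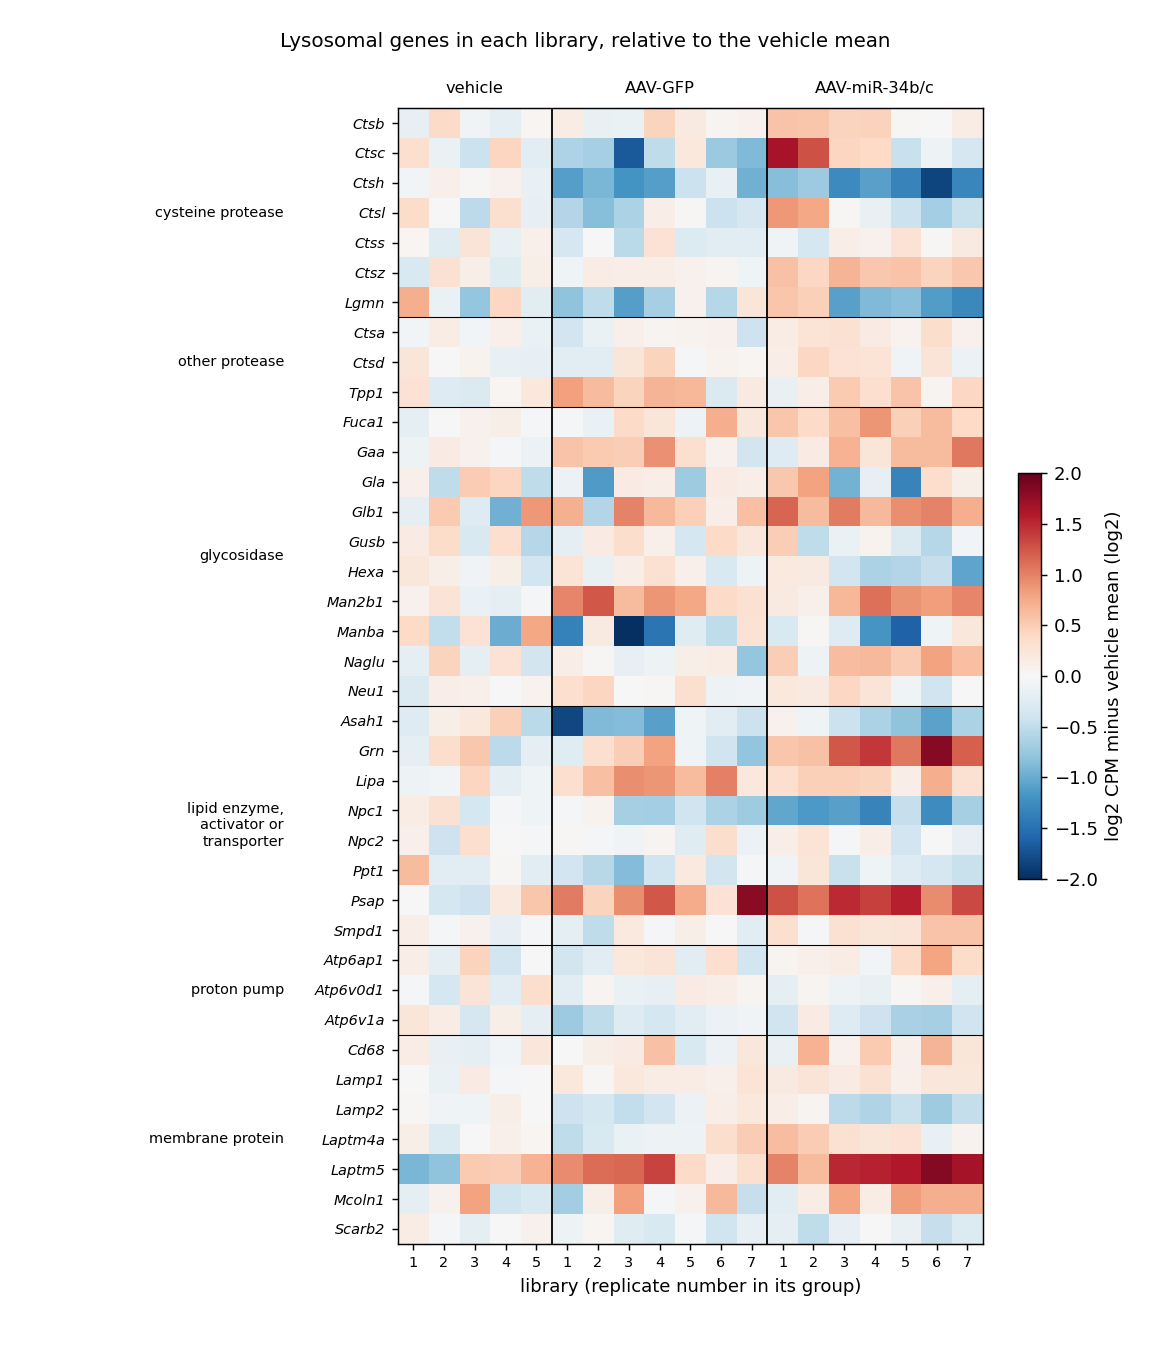
Log2 CPM of each lysosomal gene (rows, grouped by role) in each of the 19 libraries (columns), minus the mean of the vehicle libraries, with red for higher and blue for lower on a scale cut at 2. Ctsh and Npc1 are blue through miR-34b/c, Psap is red in both TAA groups, faintly in GFP library 6, and miR-34b/c libraries 1 and 2 differ from libraries 3 to 7 in Ctsc, Ctsl, Lgmn, Hexa, Lamp2, Man2b1 and Grn.

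Other genes of the lysosome and its supply were read off the same fits from 6 further lists. Against vehicle, GFP livers had 1 higher and 2 lower of 26 other hydrolases and cofactors, 1 and 0 of 18 other membrane proteins, 1 and 3 of 12 other V-ATPase subunits, 1 and 0 of 18 sorting genes, 0 and 1 of 14 genes that control lysosome gene expression, and 0 and 2 of 15 autophagy genes, beside 7.54% higher and 5.19% lower over all genes tested. Cd63, a tetraspanin of late endosomes and lysosomes, had the largest difference, 2.12 ± 0.22 (adjusted p = 6.923e-06). Atp6v0a1, a V-ATPase subunit, and Ap3d1, an adaptor subunit for sorting to lysosomes, were also higher, by 1.03 and 0.78. The lower genes were Galc (galactosylceramidase, -1.39), Hgsnat (-0.63), the V-ATPase subunits Atp6v1c1, Atp6v1g1 and Atp6v1h (-0.67, -0.77 and -0.64), Fnip1 (-0.76) and the autophagosome proteins Map1lc3b and Gabarapl2 (-0.65 and -0.71). Apart from Cd63 and Fnip1, none of these kept its call with the close pairs summed (adjusted p up to 0.231), and Cd63 alone kept it without each library in turn.

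Between miR-34b/c and GFP only 2 genes of these lists were called, beside 1.95% higher and 1.42% lower over all genes tested. Litaf, which encodes a membrane protein of late endosomes and lysosomes, was higher by 1.196 ± 0.26 (adjusted p = 0.0126), and Gabarapl1, of the autophagosome membrane, was lower, at -0.51 ± 0.12 (adjusted p = 0.0168). Both calls held without each library in turn and were lost with close pairs summed (0.103 and 0.214). The other hydrolases (0 of 25 called, 3 higher and 2 lower at an unadjusted p under 0.05, beside 7.51% and 7.77% of all genes), V-ATPase subunits (0 of 12, 0 and 1), sorting genes (0 of 18, 0 and 1) and control genes (0 of 14, 0 and 1) had no call in edgeR. Tfeb and Tfe3, the transcription factors that switch on lysosomal genes, differed by -0.18 ± 0.42 and 0.23 ± 0.27 and did not pass (adjusted p = 0.896 and 0.760). The median log2 fold changes of the 6 lists lay between -0.08 and 0.06.

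Against vehicle, miR-34b/c livers had 3 higher (among them Galns and Plbd2) and 1 lower (Hgsnat) of 26 other hydrolases, 2 higher (Cd63 and Litaf) and 1 lower (Ostm1) of 18 membrane proteins, and 1 higher (Atp6v0a1) and 3 lower (Atp6v0b, Atp6v1c1 and Atp6v1h) of 12 V-ATPase subunits, beside 12.2% higher and 9.75% lower over all genes tested. Of the sorting genes 2 were higher (Ap1b1 and Ap3d1) and 1 was lower (Vps35), of 18. Of the 14 control genes 1 was higher (Rraga) and 3 were lower, namely Fnip1 (-1.12 ± 0.21), Lamtor2 (-1.09 ± 0.18) and Lamtor5 (-0.54 ± 0.17), which act with the Rag GTPases in nutrient sensing at the lysosome surface. Of the 15 autophagy genes 0 were higher and 3 were lower, namely Gabarapl1 (-0.37), Gabarapl2 (-0.995) and Atg16l1 (-1.10). Atp6v0a1 at 1.62 ± 0.35 and Atp6v1h at -1.21 ± 0.23 were subunits of the same pump called in opposite directions. With close pairs summed, Galns, Litaf, Atp6v1h, Fnip1, Lamtor2 and Atg16l1 kept their calls and the others did not.

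**Figure D4:**
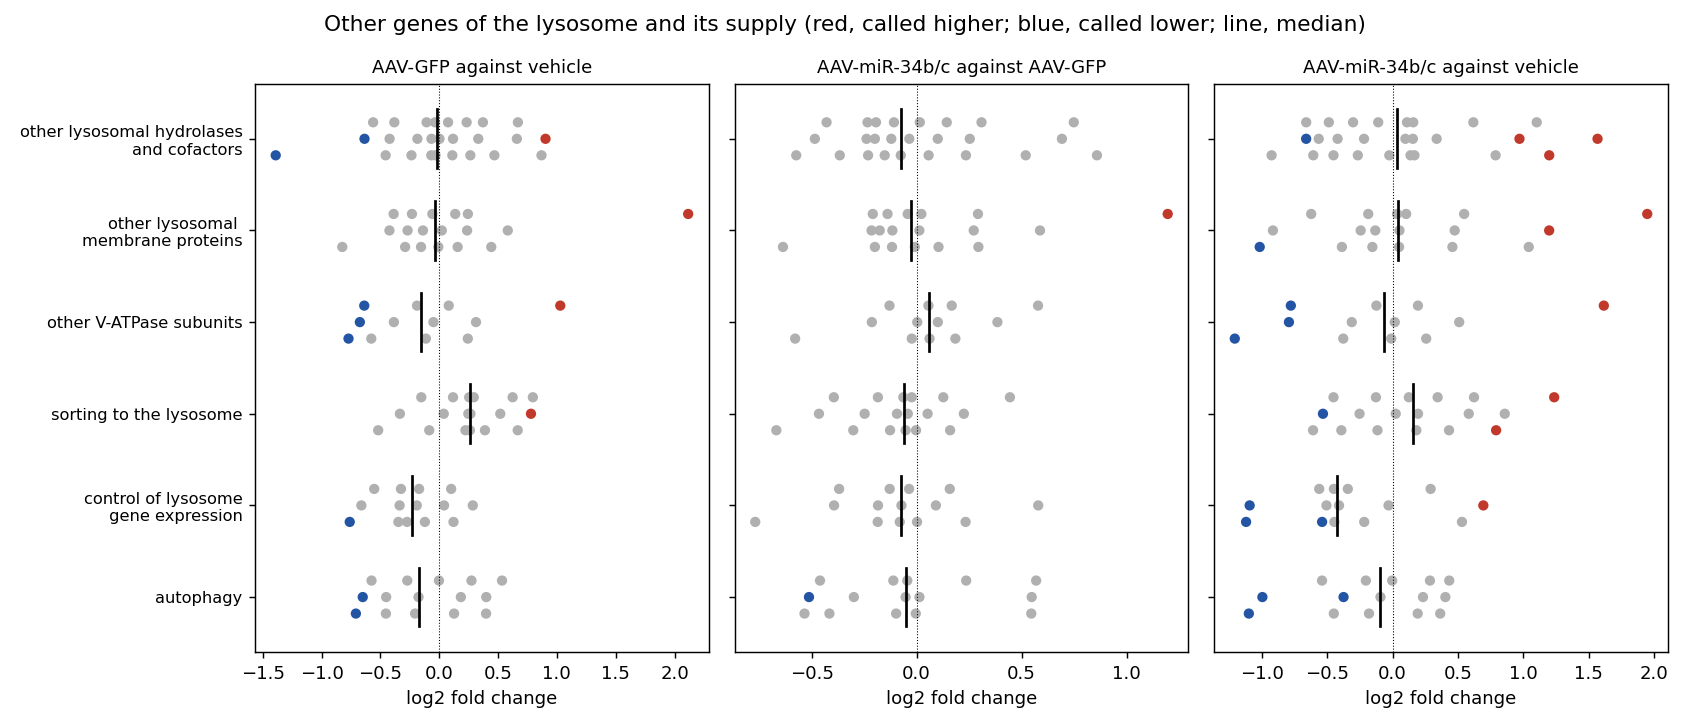
Log2 fold changes (x axis) of genes in 6 further lists (rows) in the 3 comparisons, each point a gene, with the list's median as a black line and a separate x scale for each comparison. Red points were called higher and blue points lower at an adjusted p under 0.05. Calls lie on both sides of 0 within the V-ATPase subunits, Cd63 stands out at 2.12 between GFP and vehicle, and miR-34b/c against GFP has only Litaf and Gabarapl1 in colour.

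Promoters were searched for the E-box CACGTG, the core of the CLEAR element through which TFEB acts on lysosomal genes, in windows from 250 bases before to 50 bases after the start (RefSeq, GRCm38.p6). A window was found for 34 of the 38 members. Ctsa, Lgmn and Psap also had a window at an alternative start, and a match in any window counted. For Ctsa and Lgmn the matches lay in the window further into the gene, and the window nearer its outer end held 0. The 6 letters were present in 12 of 34 (35.3%), beside 8.09% of 27025 genes, and the longer form TCACGTGA in 6 of 34 (17.6%; Ctsa, Ctsd, Gla, Atp6v0d1, Atp6v1a and Mcoln1), beside 1.12%. The 10-letter palindromic form of the CLEAR element was in 0 of 34 members, beside 0.37% of all genes. Each of these motifs is its own reverse complement, so that both strands were covered, and each longer form contains the shorter one. Of the 8 members with a window that edgeR called in any comparison, 0 held CACGTG, and of the 26 others 12 (46.2%) did. Over all genes with a window the share was 8.09%, and the share among all called genes was not counted. A match is a run of letters and was not tested for binding. One 30-base stretch is shown for each member with the longer form, with CACGTG in capitals, since none of these members was called:
Ctsa, chr2:164833749-164833778 (plus strand): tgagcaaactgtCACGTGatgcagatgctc
Ctsd, chr7:142387908-142387937 (minus strand): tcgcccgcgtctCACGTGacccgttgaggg
Gla, chrX:134601215-134601244 (minus strand): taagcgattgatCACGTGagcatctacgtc
Atp6v0d1, chr8:105566050-105566079 (minus strand): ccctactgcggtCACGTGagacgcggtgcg
Atp6v1a, chr16:44139373-44139402 (minus strand): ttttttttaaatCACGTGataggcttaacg
Mcoln1, chr8:3500462-3500491 (plus strand): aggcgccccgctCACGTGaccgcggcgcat

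The 250 bases before the start are shown for Lamp1, which had the most matches, 4, and was not called, for Mcoln1, which had 2 and was not called, and for Grn and Ctsz, which were called between the TAA groups and had 0. Capitals again mark CACGTG:
Lamp1, chr8:13158911-13159160 (plus strand): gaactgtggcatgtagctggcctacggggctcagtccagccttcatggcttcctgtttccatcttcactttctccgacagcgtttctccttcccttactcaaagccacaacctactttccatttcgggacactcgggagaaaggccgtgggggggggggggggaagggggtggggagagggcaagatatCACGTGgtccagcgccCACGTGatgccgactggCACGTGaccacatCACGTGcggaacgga
Mcoln1, chr8:3500269-3500518 (plus strand): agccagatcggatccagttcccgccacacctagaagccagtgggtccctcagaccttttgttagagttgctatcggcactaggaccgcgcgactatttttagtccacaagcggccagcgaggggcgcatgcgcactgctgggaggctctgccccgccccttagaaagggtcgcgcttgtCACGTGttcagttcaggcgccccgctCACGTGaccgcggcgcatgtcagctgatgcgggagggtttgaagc
Grn, chr11:102430257-102430506 (plus strand): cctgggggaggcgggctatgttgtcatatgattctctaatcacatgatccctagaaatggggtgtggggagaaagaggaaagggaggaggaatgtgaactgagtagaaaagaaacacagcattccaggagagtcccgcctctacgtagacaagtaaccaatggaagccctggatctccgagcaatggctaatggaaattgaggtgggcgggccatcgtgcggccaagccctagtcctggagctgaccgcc
Ctsz, chr2:174439040-174439289 (minus strand): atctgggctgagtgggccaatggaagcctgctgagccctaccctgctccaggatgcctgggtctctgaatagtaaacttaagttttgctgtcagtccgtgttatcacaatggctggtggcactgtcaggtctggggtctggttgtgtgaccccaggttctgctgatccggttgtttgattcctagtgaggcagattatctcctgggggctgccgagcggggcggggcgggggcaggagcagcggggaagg

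The members with the E-box in this window, among them Lamp1, Ctsd, Ctsl, Glb1, Gaa, Naglu and Lgmn beside those listed above, were members whose differences did not pass in the edgeR fit, while Grn, Ctsz, Ctsc, Psap, Man2b1, Lipa, Fuca1 and Laptm5 lacked these letters there. No test was made of this division, and the sizes of the differences overlapped. In miR-34b/c against vehicle, the members with the letters ran from -0.52 (Lgmn) to 0.86 (Glb1), beside 0.53 for Ctsz and 0.57 for Fuca1. Naglu passed between the TAA groups in DESeq2 (adjusted p = 0.0187), Atp6v1a was called lower in miR-34b/c against vehicle with scaling by library size alone (0.0204), and Gaa, Glb1, Lgmn and Mcoln1 were each called in 2 of the alternatives other than single left-out libraries in that comparison.

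**Figure D5:**
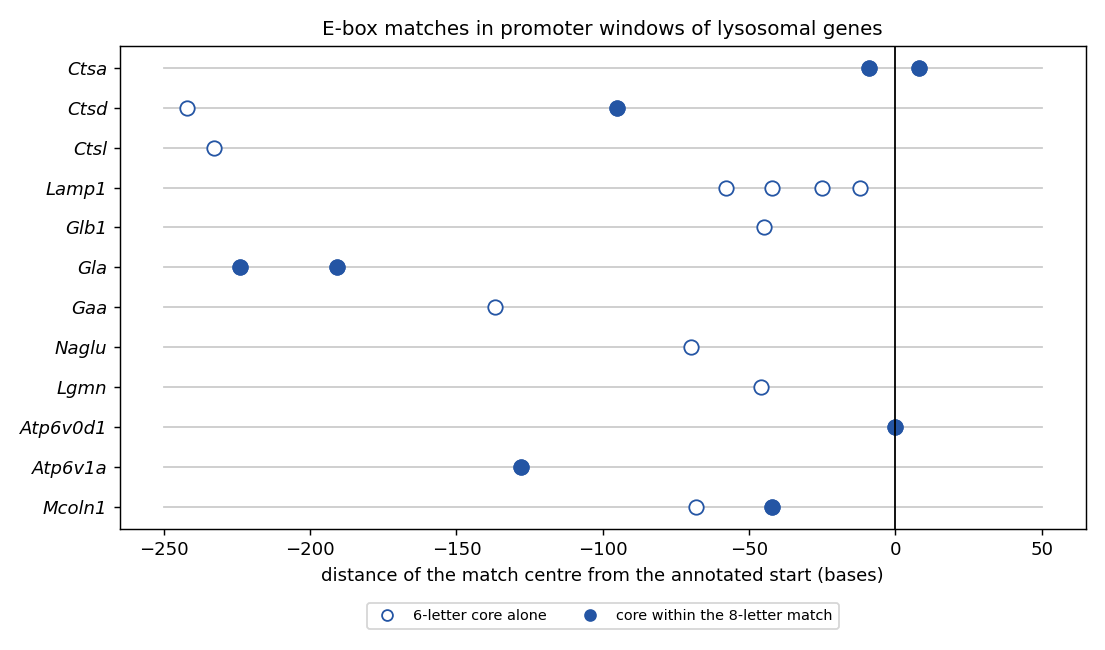
Position of each CACGTG match (x axis, bases from the annotated start, marked by the vertical line) in the promoter windows of the 12 lysosomal genes that hold one (y axis). Filled points are matches within TCACGTGA and open points are the 6 letters alone. Lamp1 has 4 matches within the 61 bases before its start.

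For the vectors' miRNAs, the mature sequence of miR-34b-5p (RefSeq, GRCm38.p6, chr9:51103610-51103632, minus strand) is shown with its seed, bases 2 to 8, in capitals, because the 3′ UTR match of this seed was counted among the members after the fits had been seen:
mmu-miR-34b-5p: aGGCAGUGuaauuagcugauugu
The complementary site CACTGCC occurred in the longest annotated 3′ UTR (GENCODE M21) of 4 of 38 members (10.5%), beside 17.4% of 9122 genes tested between miR-34b/c and GFP. The 4 sites are shown in 30 bases each, with the match in capitals:
Ctsa: aaaggcgtgcgccacCACTGCCcggcgcct
Hexa: gcagggctaatctttCACTGCCtcccggcc
Gaa: taggccatgctccatCACTGCCggggcagg
Ppt1: accacagaattcaccCACTGCCtgtttttc
Between miR-34b/c and GFP these genes differed by 0.27 ± 0.13 (Ctsa), -0.40 ± 0.19 (Hexa), 0.09 ± 0.21 (Gaa) and 0.11 ± 0.18 (Ppt1), and none passed (adjusted p = 0.326 to 0.905). Npc1, which fell in miR-34b/c against vehicle, and Ctsh, which fell in both TAA groups, had no match in their longest annotated 3′ UTR.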

How the data were processed

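Liver RNA in 19 libraries was sequenced from the 3′ end of transcripts, with single-end reads. The deposited table holds raw counts per gene, which the authors made with a service provider's pipeline that trimmed the reads, aligned them with STAR to mm10 (per the submitters' processing notes) and counted them by gene. Neither the annotation release nor the strand setting of the counting is given in the sources used here, and the same holds for molecular identifiers. Groups came from the sample labels. The labels call the libraries biological replicates, and p-values measure the spread between these libraries.

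Each pair of groups was fitted separately in edgeR 4.0.16 (R 4.3.3) with TMM scaling, filterByExpr (minimum count 10, minimum total 15), and the quasi-likelihood test, with Benjamini-Hochberg adjustment over all genes tested and a threshold of 0.05. Standard errors were the log2 fold change divided by the square root of F. The fits were tested on simulated data. Levels are CPM on TMM library sizes, with a prior count of 2 for log2 values. The 38 members and all gene lists were chosen with earlier results of these data known. Values by library (each vehicle library, and the lowest, median and highest of each TAA group) were given for the members among the 8 smallest adjusted p in either of the first 2 comparisons, and the others by fold change, range or count. DESeq2 1.42.0, limma 3.58.1 (voom with sample quality weights), other filters and scalings, a replicate block, close pairs summed (coefficient of variation under 0.2) and each library left out were the alternatives. Libraries with the same number in different groups did not deviate together in most pairs and were not paired. Counting error limits genes with few counts. A gene of the list of other hydrolases is counted but not reported here by itself.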

Additional observations from a re-analysis of the deposited data

Results flagged for a closer look

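Dixon's rule for a library that stands apart from the others of its group was applied to the 14 members with values by library, in 42 groups of libraries, of which 2.1 would be picked out by chance at the 95% level. It picked out 3. Lipa in vehicle library 3 had a log2 CPM of 7.56 (188 CPM), and the next highest vehicle library had 7.09 (136 CPM). Naglu in GFP library 7 had a log2 CPM of 3.80 (13.3 CPM), and the next lowest library of that group had 4.40 (20.6 CPM). Naglu in miR-34b/c library 2 had 4.47 (21.5 CPM), and the next lowest had 5.06 (32.8 CPM). Without vehicle library 3, the difference of Lipa between GFP and vehicle was 0.80 (adjusted p = 0.0105, edgeR).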

How the results depend on the processing

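No member called between a pair of groups reversed its direction there under any alternative run. Between GFP and vehicle, edgeR called 4 members, against 9 with limma-voom, 9 with the replicate block, 0 with the close pairs summed (7 at an unadjusted p under 0.05, beside 19.4% of all genes) and 3 to 6 with single libraries left out (7.11% to 19.8% of all genes). Between miR-34b/c and GFP it called 3, against 5 with DESeq2, 7 with limma-voom, 0 with the replicate block (9 at an unadjusted p under 0.05, beside 12.9% of all genes), 0 with the close pairs summed (7, beside 11%), 5 without miR-34b/c libraries 1 and 2 (left out as an alternative only once the data had been seen) and 1 to 4 with single libraries left out (2.23% to 3.68% of all genes), the 1 being without GFP library 1 or miR-34b/c library 3. Between miR-34b/c and vehicle it called 8, against 19 with limma-voom, 6 with the replicate block, 4 with the close pairs summed, 18 without miR-34b/c libraries 1 and 2 and 8 to 12 with single libraries left out (13.4% to 29.3% of all genes, the 12 beside 29.3% without miR-34b/c library 1). Scaling by library size alone gave 4, 4 and 9 calls, beside 13.1%, 6.74% and 25.3% of all genes. Over all genes tested, the replicate block called 32.9%, 1.53% and 10.2%, and leaving out miR-34b/c libraries 1 and 2 called 7.54% and 42.6% in the last 2, beside 12.7%, 3.36% and 21.9% in edgeR without these changes. Summing the close pairs left fewer samples. The cause of the changes in the calls was not tested for any of the alternatives. Libraries that share a replicate number were not taken as pairs, since their deviations correlated above 0.1 in only 2 of 5, 2 of 7 and 1 of 5 pairs.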
